A study of Mus musculus with 16 samples.

Results

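The 10 genes described here are the amino acid response and serine synthesis genes Atf4, Ddit3, Trib3, Asns, Chac1, Phgdh, Psat1, Psph, Shmt2 and Mthfd2. They were chosen by name and matched by symbol and Ensembl identifier to the count table, where they are 10 of 55487 genes, and all 10 were among the 16549 genes that passed the filter on low counts. The study sequenced poly-A RNA from the inguinal white adipose tissue (iWAT, the subcutaneous fat pad of the groin) of male mice aged 6 to 7 months. The 4 groups were Kmo knockout (KO) mice on a high-fat diet (HFD), wild-type (WT) mice on HFD, KO mice on chow and WT mice on chow, with 4 animals and 1 library an animal in each. The knockout covers the whole body, so Kmo, which encodes the kynurenine 3-monooxygenase of tryptophan breakdown, is lacking in every tissue and not in fat alone, and the WT animals were littermates. The promoter or allele design of the knockout, the duration of the diet and its fat content are not given in the sources used here.

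When amino acids run short, uncharged transfer RNAs activate the kinase GCN2, which phosphorylates the translation factor eIF2alpha, and ATF4 is then translated in greater amounts and switches on its target genes. Several of those targets make amino acids: PHGDH, PSAT1 and PSPH convert a glycolytic intermediate into serine in sequence, and SHMT2 and MTHFD2 pass the carbon of serine into the folate cycle of the mitochondria. ATF4 is controlled largely at translation, so its messenger RNA is not a readout of its protein. In fat, serine synthesis supplies glycine, glutathione and lipid head groups.

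Phgdh and Psat1 moved with diet, and 3 other genes match the core of the element to which ATF4 binds, though binding was not tested. The promoters of these 5 genes are printed. Each runs 5′ to 3′ along the strand of its gene, from 250 bases before to 50 bases after the start of a RefSeq transcript, on GRCm38.p6. Capitals mark matches on either strand to TGATGNAA, the core of the C/EBP-ATF response element.
Phgdh promoter, chr3:98339920-98340219, minus strand: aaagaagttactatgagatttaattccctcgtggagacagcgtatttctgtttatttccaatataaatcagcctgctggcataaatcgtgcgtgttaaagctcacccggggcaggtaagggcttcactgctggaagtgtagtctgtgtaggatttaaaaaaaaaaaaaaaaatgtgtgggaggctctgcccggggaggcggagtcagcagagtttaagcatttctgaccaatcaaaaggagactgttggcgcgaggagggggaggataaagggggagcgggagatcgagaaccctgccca
Psat1 promoter, chr19:15925010-15925309, minus strand: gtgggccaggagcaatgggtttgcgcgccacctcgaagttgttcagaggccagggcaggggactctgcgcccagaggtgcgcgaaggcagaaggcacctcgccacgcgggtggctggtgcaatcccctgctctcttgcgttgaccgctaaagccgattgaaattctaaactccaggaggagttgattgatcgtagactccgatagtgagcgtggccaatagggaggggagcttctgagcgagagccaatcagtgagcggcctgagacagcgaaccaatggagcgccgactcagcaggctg
Asns promoter, chr6:7693160-7693459, minus strand: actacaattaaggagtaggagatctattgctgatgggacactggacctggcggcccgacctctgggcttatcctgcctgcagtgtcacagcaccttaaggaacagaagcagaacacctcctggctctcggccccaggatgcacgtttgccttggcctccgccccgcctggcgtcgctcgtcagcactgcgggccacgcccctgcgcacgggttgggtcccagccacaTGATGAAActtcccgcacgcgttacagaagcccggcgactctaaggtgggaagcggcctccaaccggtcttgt
Trib3 promoter, chr2:152344011-152344310, minus strand: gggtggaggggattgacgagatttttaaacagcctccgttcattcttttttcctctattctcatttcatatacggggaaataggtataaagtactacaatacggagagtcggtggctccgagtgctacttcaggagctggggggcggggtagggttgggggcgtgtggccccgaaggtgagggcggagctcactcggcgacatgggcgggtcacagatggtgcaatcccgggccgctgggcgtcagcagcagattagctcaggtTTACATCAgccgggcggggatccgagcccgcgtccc
Chac1 promoter, chr2:119350992-119351291, plus strand: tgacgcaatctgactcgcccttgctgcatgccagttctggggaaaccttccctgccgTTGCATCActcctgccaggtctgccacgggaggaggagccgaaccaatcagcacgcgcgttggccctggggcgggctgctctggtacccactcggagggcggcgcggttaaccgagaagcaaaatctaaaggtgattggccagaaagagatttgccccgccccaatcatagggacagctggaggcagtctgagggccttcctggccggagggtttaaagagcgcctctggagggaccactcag
Asns has the core at -23 to -16 from its start, as TGATGAAA on the strand of the gene. In Trib3 it lies at 14 to 21 as TGATGTAA, and in Chac1 at -193 to -186 as TGATGCAA, both on the opposite strand. The other 7 genes, Phgdh and both windows of Psat1 included, had no match in these windows, which says only that these letters are not there. Over 32851 RefSeq windows of the same length, 3.97% held the core. The cyclic AMP response element TGACGTCA was in none of the 10 genes' windows, so it overlapped no core there, and in 1.79% of all windows, on either strand.

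Each library held 13824404 to 16909361 read pairs assigned to genes. Kmo read 0.0697 to 0.543 CPM (counts scaled to library size with the trimmed mean of M values) in the 8 KO libraries and 2.66 to 19 CPM in the 8 WT libraries, so the groups did not overlap. Markers of adipocytes were abundant, with Fabp4 at a mean of 12909 CPM, and those of mammary and skin epithelium were near 0, with at most 3.85 CPM summed over 8 genes in a library. The T and B cell markers, 16 genes summarised as their mean log2 CPM, set 6 libraries apart. This score was 4.97 to 6.12 in KO HFD replicate 1, WT HFD replicate 2, KO chow replicates 1 and 3 and WT chow replicates 2 and 4, and -0.11 to 3.23 in the other 10 libraries. Where stated, results are also given without these 6 libraries, and otherwise they cover all 16. Because whole tissue was sequenced, fewer cells of a type and less RNA per cell cannot be told apart.

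Levels were compared as FPKM, fragments scaled by depth and by the merged length of all annotated exons. That length, 4254 bases for Psat1 and 2358 for Atf4, need not be the length of 1 transcript, and the order of the genes depends on it. Averaged over the 16 libraries, Phgdh was the highest of the 10 genes at 127 FPKM (71.5 to 180). Atf4 followed at 46.6 FPKM (35.4 to 62.7), Psat1 at 38.0 FPKM (18.8 to 54.3), Asns at 22 FPKM (16.6 to 34.4) and Ddit3 at 17 FPKM (11.3 to 25.2). The lowest Phgdh library lay above the highest Atf4 library, whereas the ranges of Atf4 and Psat1, of Psat1 and Asns, and of Asns and Ddit3 overlapped. Below a gap came Shmt2 at 6.45 FPKM (3.90 to 8.31), Psph at 5.60 FPKM (4.24 to 8.08), Chac1 at 4.09 FPKM (2.43 to 5.71), Trib3 at 4.02 FPKM (2.67 to 5.83) and Mthfd2 at 2.64 FPKM (1.11 to 4.71). These last 5 genes overlapped one another in every neighbouring pair, and no library of Shmt2 reached the lowest library of Ddit3. The 3 enzymes of the serine route therefore stood at different levels, with Psph, the last step, the lowest of them in FPKM.

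**Figure D1:**
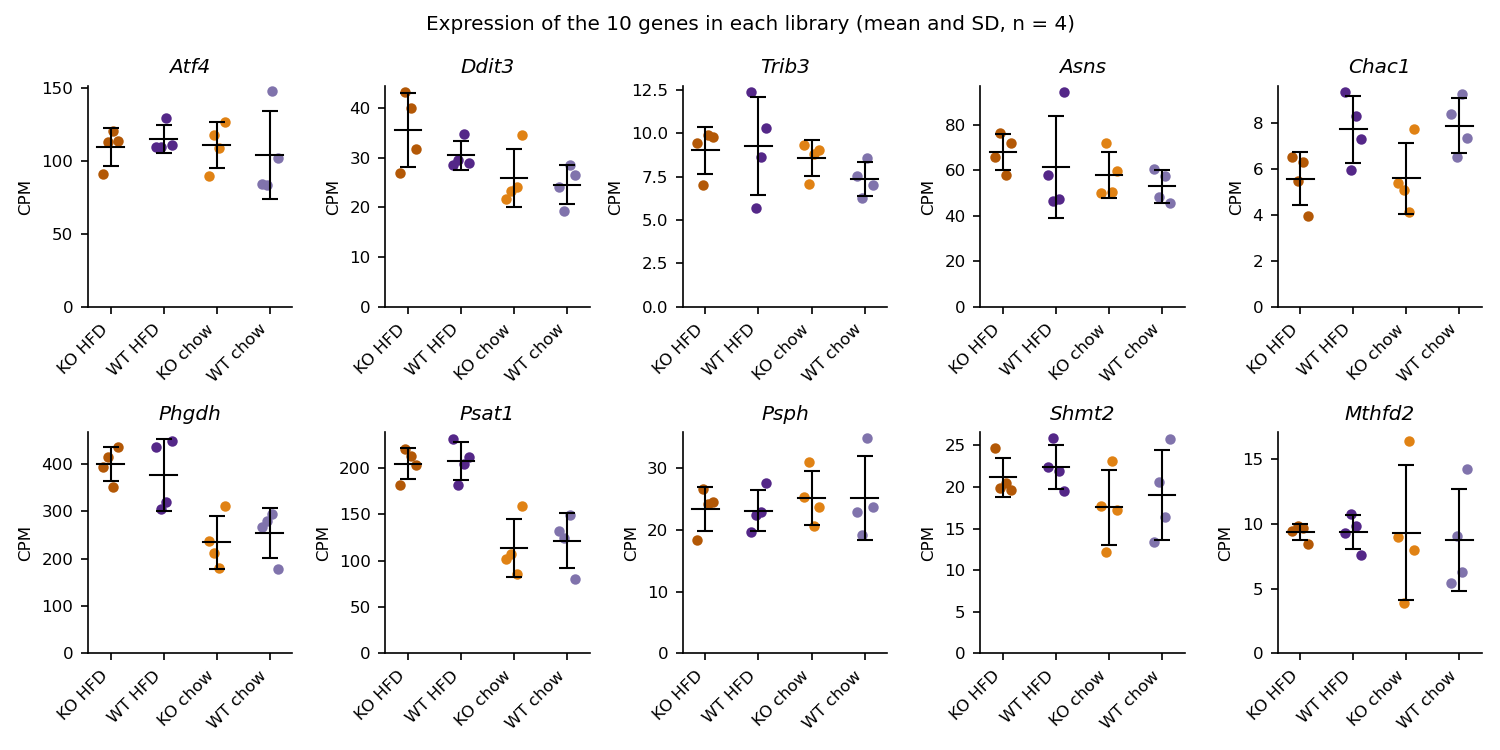
CPM of the 10 genes in each of the 16 libraries, by group. Points are animals, the long bar is the mean and the whiskers the SD (n = 4), and every axis starts at 0. Psat1 is the gene whose 8 HFD libraries (182 to 231 CPM) all lie above the 8 chow libraries (80.1 to 159 CPM).

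Of the 10 genes, 2 were called higher on HFD in KO mice, 1 in WT mice and 3 over both genotypes, and none was called lower (edgeR quasi-likelihood test, p adjusted over all 16549 genes, threshold 0.05). The called genes were Psat1 and Phgdh in KO mice, Psat1 in WT mice, and Psat1, Phgdh and Ddit3 over both genotypes. Among all genes tested, 12.5% were called in KO mice (7.28% higher), 11.8% in WT mice (6.90% higher) and 33.1% over both genotypes (17.1% higher). The 3 of 10 over both genotypes therefore stands near the background share, and so do the counts in each genotype. The median log2 difference of the 10 genes was 0.21 over both genotypes, beside -0.04 over all genes. HFD libraries lay wholly above chow libraries for Psat1 alone over both genotypes, as they did for 4.33% of all genes. Within KO mice and within WT mice they did so for 2 of the 10 genes each, Psat1 and Phgdh. Of all 16549 genes, 1682 did so in KO mice and 1656 in WT mice. The 2 diet effects were not called different for any of the 10 genes by the interaction test in edgeR, in DESeq2 or in limma-voom, and 0% of all genes passed in edgeR. None of the 10 had an unadjusted interaction p under 0.05, where 1.13% of all genes did, and the smallest was 0.392, for Trib3.

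Psat1, the aminotransferase of the second step of serine synthesis, was the most strongly changed of the 10 genes by diet and was higher on HFD in both genotypes. It read 182, 221, 213 and 203 CPM in KO HFD libraries and 231, 182, 205 and 212 CPM in WT HFD libraries, against 102.2, 107, 85.8 and 159 CPM in KO chow libraries and 132, 125, 150 and 80.1 CPM in WT chow libraries. The highest chow library lay below the lowest HFD library in each genotype and over both. Its fold change was 1.80 in KO mice (log2 0.85, SE 0.19, edgeR quasi-likelihood adjusted p = 0.0119) and 1.71 in WT mice (log2 0.77, SE 0.19, edgeR adjusted p = 0.0188). Taken over both genotypes it was 1.75 (log2 0.81, SE 0.13, edgeR adjusted p = 0.000548). The call in WT mice was lost without WT HFD replicate 3 (log2 0.78, edgeR adjusted p = 0.0512) and in the libraries with a T and B cell score under 4 (log2 0.61, edgeR adjusted p = 0.0546), while the call over both genotypes held in all 28 alternatives (log2 0.64 to 0.91).

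Phgdh, the dehydrogenase that commits carbon to serine in the first step, was also higher on HFD. It read 394, 416, 352 and 436 CPM in KO HFD libraries, against 237, 211, 179 and 311 CPM in KO chow libraries, with no overlap. In WT mice it read 436, 305, 319 and 448 CPM on HFD, against 267, 279, 294 and 178 CPM on chow, again with no overlap, although KO chow replicate 4 reached above the lowest WT HFD library. The fold change was 1.70 in KO mice (log2 0.77, SE 0.19, edgeR adjusted p = 0.0188) and 1.59 over both genotypes (log2 0.67, SE 0.13, edgeR adjusted p = 0.00192). In WT mice a log2 difference of 0.57 (SE 0.19, edgeR adjusted p = 0.0604) missed the threshold of 0.05. The difference between the diet effects of the genotypes, 0.20 on the log2 scale (95% interval -0.37 to 0.76, edgeR adjusted p = 1), was not called, so a call in KO mice and none in WT mice does not show that the genotypes differ.

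The Phgdh calls within 1 genotype turned on single animals. In KO mice the call was lost without KO chow replicate 2 (edgeR adjusted p = 0.0560), KO chow replicate 3 (0.0654), KO HFD replicate 2 (0.0574) or KO HFD replicate 4 (0.0508), and in the libraries with a T and B cell score under 4 (0.0855), with Phgdh log2 differences of 0.62 to 0.75. In WT mice Phgdh passed without KO chow replicate 4 (edgeR adjusted p = 0.0421) and without WT chow replicate 3 (0.050, below the threshold before rounding). Over both genotypes Phgdh was called in all 28 alternatives, at log2 0.55 to 0.75.

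Psph, the phosphatase of the last step, was not called for diet in either genotype. Psph read 18.3, 26.6, 24.3 and 24.6 CPM in KO HFD libraries and 19.6, 22.4, 22.9 and 27.7 CPM in WT HFD libraries, against 25.3, 31.1, 20.7 and 23.7 CPM in KO chow libraries and 22.9, 19.2, 35.0 and 23.7 CPM in WT chow libraries. The groups overlapped throughout, and the diet difference over both genotypes was -0.11 (log2, 95% interval -0.38 to 0.16, edgeR adjusted p = 0.521). That interval lies wholly below the interval of Psat1 (0.53 to 1.09) and of Phgdh (0.38 to 0.95), though the difference between the genes was not tested. Reads were counted without regard to strand, and 452 of the 4329 exon bases of Psph (10.4%) are shared with Cct6a on the opposite strand. How reads in shared bases were assigned was not checked, so the Psph count may be too high or too low.

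**Figure D2:**
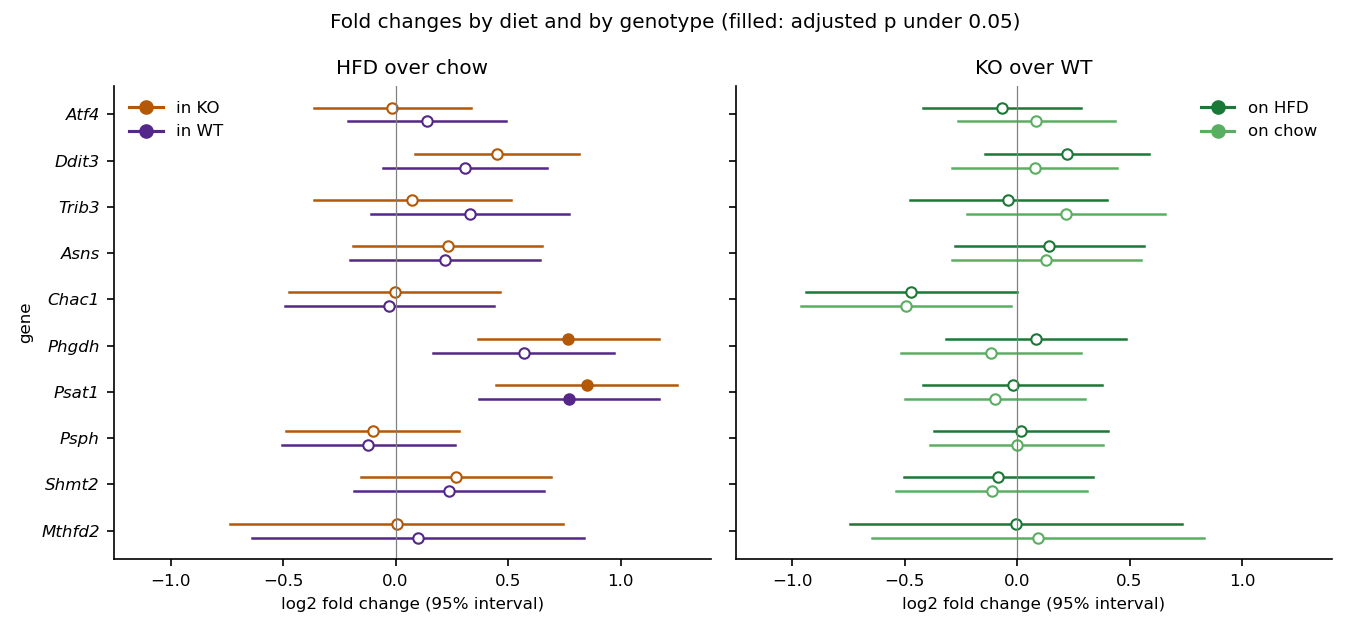
log2 fold change of each of the 10 genes with its 95% interval, HFD over chow in KO and in WT mice (left) and KO over WT on HFD and on chow (right). Filled points have an edgeR adjusted p under 0.05, which holds for Psat1 in both genotypes and Phgdh in KO mice. No point is filled on the right.

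Among the transcription factors, Ddit3 (CHOP, a factor induced by ATF4 under prolonged stress) was higher on HFD over both genotypes. It read 27.0, 43.2, 39.9 and 31.8 CPM in KO HFD libraries and 28.5, 29.5, 34.8 and 29.0 CPM in WT HFD libraries, against 21.8, 23.3, 24.1 and 34.6 CPM in KO chow libraries and 24.0, 19.3, 28.5 and 26.4 CPM in WT chow libraries. The diets overlapped in both genotypes, though in WT mice only narrowly, at about 28.5 CPM. The fold change over both genotypes was 1.30 (log2 0.38, SE 0.12, edgeR adjusted p = 0.0257). Within a genotype Ddit3 was not called, at 0.45 in KO mice (edgeR adjusted p = 0.0933) and 0.31 in WT mice (edgeR adjusted p = 0.249).

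The Ddit3 call was the least stable of the 3. It was lost without KO HFD replicate 2 (edgeR adjusted p = 0.0602), KO HFD replicate 3 (0.0551), WT HFD replicate 3 (0.0556) or KO chow replicate 3 (0.0506), with the T and B cell score as a covariate (0.0661) and in the 10 libraries with a score under 4 (0.118), the log2 difference of Ddit3 lying between 0.28 and 0.36 in these fits. In KO mice alone Ddit3 passed without KO HFD replicate 1 (edgeR adjusted p = 0.0401) or KO chow replicate 4 (0.0190), and with limma-voom (limma adjusted p = 0.0367). Of its 1713 exon bases, 68 are shared with Mars1 on the opposite strand. A second entry named Ddit3 shares 105 of these bases on the same strand and had 0 counts in total.

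Atf4 itself, the central activator, read 91.2 to 121 CPM in KO HFD libraries and 110 to 129 CPM in WT HFD libraries, against 89.8 to 127 CPM in KO chow libraries and 83.5 to 148 CPM in WT chow libraries. Both diets covered much the same range. The diet difference over both genotypes was 0.06 (log2, 95% interval -0.18 to 0.31, edgeR adjusted p = 0.704). Trib3, a pseudokinase target that dampens ATF4 activity, read 7.01 to 9.89 CPM in KO HFD libraries and 5.68 to 12.4 CPM in WT HFD libraries, against 7.05 to 9.31 CPM in KO chow libraries and 6.27 to 8.58 CPM in WT chow libraries. Its difference was 0.20 (log2, 95% interval -0.11 to 0.51, edgeR adjusted p = 0.299), with overlap in both genotypes.

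Asns, asparagine synthetase and a standard reporter of the amino acid response, read 65.9, 76.3, 57.8 and 71.9 CPM in KO HFD libraries and 58.0, 46.4, 47.5 and 94.2 CPM in WT HFD libraries, against 50.1, 71.7, 50.3 and 59.5 CPM in KO chow libraries and 60.6, 48.2, 57.5 and 45.4 CPM in WT chow libraries. The diets overlapped in both genotypes, and WT HFD replicate 4 was the highest of all 16 libraries. The difference over both genotypes was 0.22 (log2, 95% interval -0.07 to 0.52, edgeR adjusted p = 0.229). In WT mice it was 0.22, and -0.06 without WT HFD replicate 4. Asns, Trib3 and Chac1, the 3 genes with a match to TGATGNAA in the printed promoters, were among the 7 genes not called by diet.

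Shmt2 and Mthfd2, the mitochondrial one-carbon enzymes, showed no called diet difference in the full set. Shmt2 read 24.6, 19.8, 20.5 and 19.7 CPM in KO HFD libraries and 22.4, 25.8, 21.9 and 19.5 CPM in WT HFD libraries, against 17.7, 12.1, 23.1 and 17.3 CPM in KO chow libraries and 13.4, 20.5, 16.4 and 25.7 CPM in WT chow libraries. Mthfd2 read 9.49, 9.81, 9.70 and 8.44 CPM in KO HFD libraries and 9.28, 10.8, 9.84 and 7.62 CPM in WT HFD libraries, against 8.99, 3.87, 16.4 and 8.0 CPM in KO chow libraries and 5.41, 9.06, 6.32 and 14.2 CPM in WT chow libraries. The HFD values of Mthfd2 lay inside the chow range, and the SD was 0.962 CPM on HFD and 4.31 CPM on chow (n = 8 each). Over both genotypes the difference was 0.25 for Shmt2 (log2, 95% interval -0.05 to 0.55, edgeR adjusted p = 0.180) and 0.05 for Mthfd2 (log2, 95% interval -0.47 to 0.57, edgeR adjusted p = 0.889).

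Both mitochondrial enzymes were higher where the T and B cell score was high. In the 6 libraries with a score over 4, Mthfd2 read 8.99 to 16.4 CPM, against 3.87 to 9.84 CPM in the 10 others, and Shmt2 read 17.7 to 25.8 CPM against 12.1 to 22.4 CPM. Psat1 ran the other way, with 80.1 to 182 CPM in the 6 libraries and 107 to 231 CPM in the 10. With the score as a covariate the diet difference of Shmt2 was 0.42 (log2, edgeR adjusted p = 0.0100). In the 10 libraries with a score under 4, a restriction chosen after seeing the data, it was 0.47 for Shmt2 (edgeR adjusted p = 0.0190) and 0.62 for Mthfd2 (edgeR adjusted p = 0.0480), both higher on HFD.

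In those 10 libraries Shmt2 read 19.5 to 22.4 CPM in 6 HFD libraries and 12.1 to 17.3 CPM in 4 chow libraries, which did not overlap. How many of all genes were without overlap in these libraries was not counted. Mthfd2 read 7.62 to 9.84 CPM in the HFD libraries and 3.87 to 8.0 CPM in the chow libraries, which overlapped. Psat1 (log2 0.64) and Phgdh (log2 0.55) were also called there over both genotypes, so 4 of the 10 genes were called higher in the 10 libraries, where edgeR called 11.3% of the 16436 genes tested higher and 10.2% lower. In the full set 3 of the 10 genes were called higher, beside 17.1% of all genes. Scores over 4 were found in 2 of 8 HFD libraries and 4 of 8 chow libraries. Of the 16 markers, none of them at 0 in all libraries, 15 had a log2 difference below 0 on HFD over both genotypes, without a call, and the median was -1.15 (-0.92 in KO mice and -1.43 in WT mice). The exception was Ighm, the heavy chain of IgM and the most abundant of them at a mean of 876 CPM, which was called higher on HFD (log2 1.13, edgeR adjusted p = 0.000471). On average most of the summed level of the 16 was Ighm, but not in every library. Ighm was at most 759 CPM in KO chow libraries and 742 CPM in WT chow libraries, below the highest sums of the other 15 there. The sum of the 16 was 1256 to 1877 CPM in KO HFD libraries and 868 to 2074 CPM in WT HFD libraries, against 364 to 1341 CPM in KO chow libraries and 546 to 1811 CPM in WT chow libraries. Without Ighm the other 15 summed to a mean of 199 CPM in KO HFD libraries (13.3 to 733) and 173 CPM in WT HFD libraries (9.51 to 614), against 397 CPM in KO chow libraries (22 to 965) and 457 CPM in WT chow libraries (15 to 1069). On average the sum was thus higher on HFD with Ighm and lower without it, and the diets overlapped without it. The part of lymphoid cells in the diet differences was otherwise not tested.

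**Figure D3:**
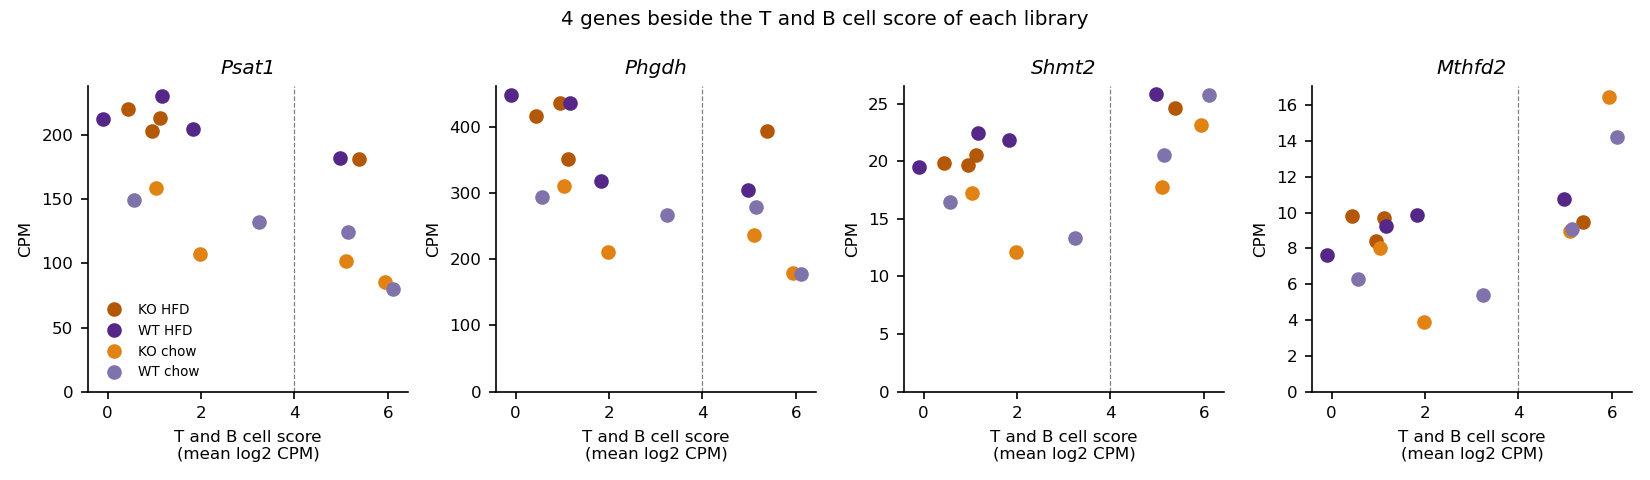
CPM of Psat1, Phgdh, Shmt2 and Mthfd2 against the T and B cell score (mean log2 CPM of 16 marker genes) of each of the 16 libraries, coloured by group. The dashed line marks a score of 4. Shmt2 and Mthfd2 sit higher to the right of the line, with Mthfd2 up to 16.4 CPM there, and within the points to the left the HFD libraries of Shmt2 (19.5 to 22.4 CPM) lie above the chow libraries.

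Phgdh and Psat1 also varied together between animals of the same group. After each group's mean was removed, their log2 CPM had a Pearson r of 0.86 over the 16 libraries (permutation p = 0.00205 within groups, adjusted over 45 pairs 0.0231) and a Spearman rho of 0.72 (adjusted permutation p = 0.0699). Without the 2 libraries farthest from the median of Phgdh the r was 0.73. It was 0.97 in the chow libraries and 0.55 in the HFD libraries, and, centred on diet, 0.74 in the 10 libraries with a T and B cell score under 4 and 0.89 in the 6 with a score over 4. Every r given below for the libraries under or over 4 was likewise centred on diet only, so it includes any genotype difference. Psat1 also followed the adipocyte marker score within groups, at r = 0.88 and rho = 0.85 (permutation p adjusted over 80 relations of the 10 genes to 8 marker scores, 0.0032 and 0.0152), r = 0.82 without 2 libraries, and 0.47 and 0.84 in the libraries with a T and B cell score under and over 4. For Phgdh the values were r = 0.68 and rho = 0.62, which missed the threshold (adjusted permutation p = 0.0858 and 0.077). The r was 0.59 without 2 libraries, and 0.49 and 0.61 in the libraries with a T and B cell score under and over 4. Against the T and B cell score, which falls into 2 sets of libraries, Psat1 had r = -0.78 and rho = -0.77 within groups (adjusted permutation p = 0.0048 and 0.0446). Phgdh had r = -0.65, which missed the threshold, and rho = -0.71, which passed it (adjusted permutation p = 0.092 and 0.0398). The r within the sets under and over 4 was -0.44 and -0.85 for Psat1 and -0.58 and -0.66 for Phgdh. With the endothelial marker score Psat1 had r = 0.64 and rho = 0.69 within groups (adjusted permutation p = 0.0471 and 0.077). That r was 0.80 without 2 libraries, and 0.45 and 0.16 in the libraries with a T and B cell score under and over 4. The part of cell content in the joint variation of Psat1 and Phgdh was not tested.

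Shmt2 and Mthfd2, which act one after the other in the mitochondria, formed the other pair that varied together, with r = 0.94 and rho = 0.90 over the 16 libraries (adjusted permutation p = 0.0054 and 0.0165). The r was 0.90 without 2 libraries, 0.88 in the 10 libraries with a score under 4 and 0.83 in the 6 with a score over 4. Asns ran opposite to both, at r = -0.64 with Mthfd2 (adjusted permutation p = 0.0054) and r = -0.66 with Shmt2 (adjusted permutation p = 0.0207). These negative values were smaller in size within the 2 sets of libraries, at -0.52 (score under 4) and -0.21 (score over 4) for Asns with Mthfd2, and -0.55 and -0.32 for Asns with Shmt2. Atf4 and Ddit3 had r = 0.72, which missed the threshold after adjustment (permutation p = 0.0582), and rho = 0.78, which passed it (adjusted permutation p = 0.0165). The r of Atf4 and Ddit3 was 0.42 in the 10 libraries with a score under 4 and 0.85 in the 6 with a score over 4, so its size differed between the 2 sets. In all, 4 of the 45 pairs passed by Pearson r. Ddit3 ran opposite to the mammary and skin epithelial score within groups, at r = -0.84 and rho = -0.77 (adjusted permutation p = 0.00747 and 0.0171). That r was -0.81 without 2 libraries, and -0.54 and -0.95 in the libraries with a T and B cell score under and over 4. These markers were near 0, with Epcam the most abundant at a mean of 0.449 CPM, and their part in the level of Ddit3 was not tested.

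Markers of dividing cells moved with Mthfd2. Within groups the proliferation score had r = 0.74 and rho = 0.76 with Mthfd2 (adjusted permutation p = 0.0078 and 0.0252), and r = 0.70 without 2 libraries. Centred on diet only, its r with Mthfd2 was 0.79 and 0.58 in the libraries with a T and B cell score under and over 4. With Shmt2 it had r = 0.68 and rho = 0.58, which missed the threshold (adjusted permutation p = 0.0628 and 0.131). The r with Shmt2 was 0.60 without 2 libraries, and 0.67 and 0.65 in the libraries with a T and B cell score under and over 4. Asns ran opposite to the proliferation score, at r = -0.85 and rho = -0.79 (adjusted permutation p = 0.0414 and 0.0446). Its r was -0.67 without 2 libraries, and -0.78 and -0.91 in the libraries with a T and B cell score under and over 4. Of the 12 proliferation markers, 3 were called higher on HFD over both genotypes, beside 17.1% of all genes, and 1 to 9 on leaving out each library. All 12 had a log2 difference above 0, with a median of 0.60. Their summed level was 65.8 to 104 CPM in KO HFD libraries and 40.1 to 127 CPM in WT HFD libraries, against 34.5 to 75.3 CPM in KO chow libraries and 39.9 to 91.0 CPM in WT chow libraries, and none was at 0 in all libraries.

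The adipocyte score ran opposite to Shmt2 within groups, at r = -0.79 (adjusted permutation p = 0.0471) and rho = -0.69 (adjusted permutation p = 0.077), with r = -0.70 without 2 libraries. For Mthfd2 the r was -0.73 (adjusted permutation p = 0.0716) and rho = -0.57 (adjusted permutation p = 0.134), with r = -0.70 without 2 libraries. Centred on diet, r was 0.31 for Shmt2 and 0.27 for Mthfd2 in the 10 libraries with a T and B cell score under 4. In the 6 others r was -0.77 and -0.61. The r over all 16 libraries also carries the gap between the 2 sets, so the negative relation cannot be placed in 1 set. With the T and B cell score itself Shmt2 had r = 0.73 and rho = 0.83 within groups (adjusted permutation p = 0.0471 and 0.0171). Mthfd2 had r = 0.62 and rho = 0.66, which missed the threshold (adjusted permutation p = 0.0862 and 0.077). Within the sets the r was -0.35 for Shmt2 and -0.21 for Mthfd2 in the 10 libraries and 0.84 and 0.83 in the 6. The part of dividing cells and of cell content in the variation of Shmt2, Mthfd2 and Asns was not tested.

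**Figure D4:**
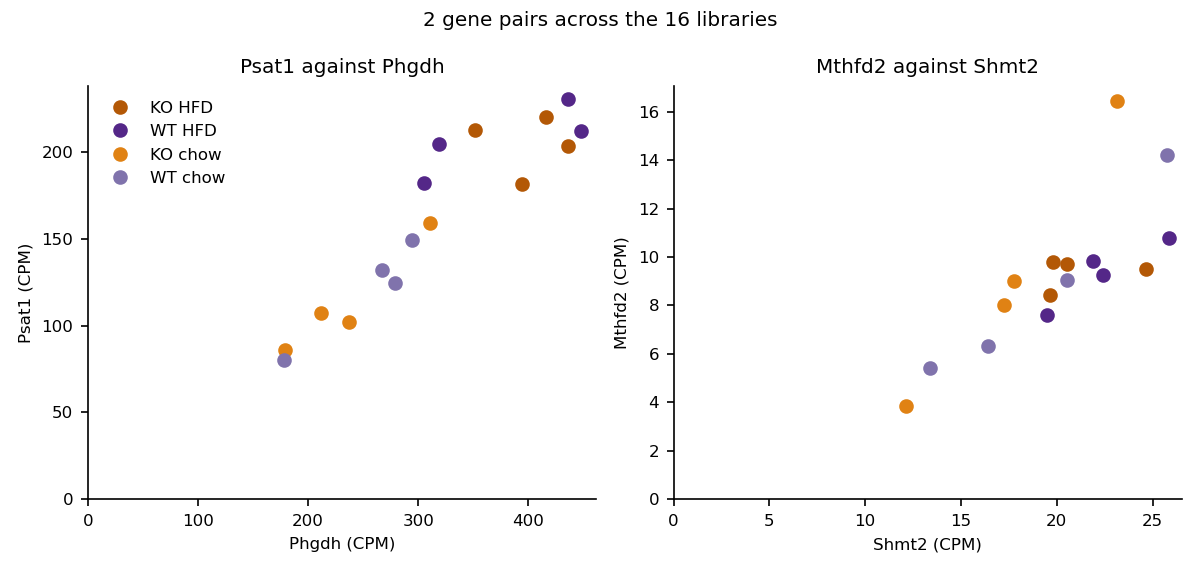
Psat1 against Phgdh (left) and Mthfd2 against Shmt2 (right), in CPM, for each of the 16 libraries, coloured by group, with both axes starting at 0. The HFD libraries lie at the upper right of the left plot, up to 448 CPM of Phgdh and 231 CPM of Psat1, while on the right KO chow replicate 2 (12.1 and 3.87 CPM) and KO chow replicate 3 (23.1 and 16.4 CPM) span most of the range of Mthfd2.

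The genes most like the 3 called genes across the 16 libraries, by Pearson r of log2 CPM among 13189 genes, were Itih5, Ltv1 and Slc5a3 for Psat1 (r = 0.98 each). Slc5a3, which imports myo-inositol, had a mean of 215 CPM on HFD and 81.5 CPM on chow. For Phgdh they were Sulf2 (0.97), Lrp5 (0.97) and Tln2 (0.96), and for Ddit3 they were Dgat2, which makes triglyceride, Rilpl2 and Cabp1 (0.91 each). Likeness here includes the diet difference and whatever else the libraries share, so it is a description only. The adipocyte marker score was 11.2 to 11.6 in KO HFD libraries and 11.2 to 11.5 in WT HFD libraries, against 10.7 to 11.2 in KO chow libraries and 10.5 to 11.3 in WT chow libraries (mean log2 CPM of 8 genes), and their summed level was 35397 to 48444 CPM in KO HFD libraries and 36675 to 46854 CPM in WT HFD libraries, against 27197 to 37563 CPM in KO chow libraries and 22527 to 37766 CPM in WT chow libraries. Of the 8, 2 were called higher over both genotypes (Lep and Cidec) and 1 lower (Pparg), and none was at 0. Among all genes 17.1% were called higher and 2644 of 16549 lower. The part of adipocyte content in the diet differences was not tested.

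Other genes of the amino acid response were described by lists of textbook members, over both genotypes, where edgeR called 2827 of all genes higher (17.1%) and 2644 lower. Of 16436 genes it called 1864 higher (11.3%) and 1680 lower (10.2%) in the 10 libraries with a T and B cell score under 4, so counts there stand against a lower share. The transfer RNA synthetases, which charge transfer RNA with amino acids in the cytosol, had the most members called: 16 of 20 rose on HFD and none fell, with a median log2 difference of 0.33. By adjusted p the leading members were Eprs, at 205 ± 10.6 CPM on HFD and 133 ± 19.8 CPM on chow (SD, n = 8 each; log2 0.63, edgeR adjusted p = 0.000194), Lars (0.47), Iars (0.50) and Nars (0.47). In KO mice 7 of the 20 rose and in WT mice 12, and the difference between the genotypes was called for none. Of the 20, 12 rose in the 10 libraries with a T and B cell score under 4, where 11.3% of all genes did.

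Other partners and targets of ATF4 were higher on HFD in 5 of 17 genes and lower in none, with a median of 0.31. Ddit4, which restrains mTORC1, averaged 75.5 ± 11.8 CPM on HFD and 38.7 ± 14.4 CPM on chow (SD, n = 8 each; log2 0.97, edgeR adjusted p = 0.00200). Sesn2, a leucine sensor that also restrains mTORC1, rose by 0.69 (edgeR adjusted p = 0.00289), the related factor Atf5 by 0.77 (edgeR adjusted p = 0.00096) and the lipoprotein receptor Vldlr by 0.81 (edgeR adjusted p = 0.00171) on the log2 scale. The other called gene was Pycr1 of proline synthesis, named outside the rule as the last of the 5. In the 10 libraries with a score under 4, 4 of the 17 were called higher, 3 of them from among these 5.

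Of 10 amino acid transporters 3 rose and 1 fell, with a median of 0.05 that turned to -0.01 under upper-quartile scaling. Slc3a2, the heavy chain shared by several exchangers, averaged 175 ± 24.1 CPM on HFD and 88.2 ± 16.9 CPM on chow (SD, n = 8 each; log2 0.99, edgeR adjusted p = 7.9e-05). Slc1a4, which carries neutral amino acids including serine, averaged 13.3 ± 1.53 CPM on HFD and 6.56 ± 2.33 CPM on chow (SD, n = 8 each; log2 1.01, edgeR adjusted p = 0.00149), and the cationic carrier Slc7a1 rose by 0.40 (log2, edgeR adjusted p = 0.0243). The cationic carrier Slc7a3, scarce at 0.557 CPM on HFD and 1.15 CPM on chow, fell by 1.03 (log2, edgeR adjusted p = 0.00382). Slc7a11, the cystine carrier, named after its value was seen because it lies far from the others, was at -2.52 (log2, SE 1.01, edgeR adjusted p = 0.0707). In the libraries with a score under 4, 9 of the transporters could be tested, with 3 called higher and 1 lower.

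Upstream, 3 of 9 genes of the eIF2alpha kinases and phosphatase subunits rose and 1 fell. These were the kinase PERK gene Eif2ak3 (0.37, edgeR adjusted p = 0.00267), Eif2s1, which encodes eIF2alpha itself (0.31, edgeR adjusted p = 0.00179), the GCN2 partner Gcn1 (0.30, edgeR adjusted p = 0.00248), and the phosphatase subunit Ppp1r15b, which fell by 0.39 (edgeR adjusted p = 0.00059) on the log2 scale. The GCN2 gene Eif2ak4 itself was at -0.04 (edgeR adjusted p = 0.698). Endoplasmic reticulum chaperones and XBP1 targets, which answer to a neighbouring branch of the stress response, were higher in 13 of 17 genes and lower in 1, with a median of 0.40. Edem1 (0.76), Hspa5 (0.87), Dnajc3 (0.45) and Hyou1 (0.51) had the smallest adjusted p. In the 10 libraries with a score under 4, 3 of the 9 upstream genes were called higher and 1 lower, and 11 of the 17 chaperone genes higher and 1 lower.

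Among the enzymes that use serine and one-carbon units, some were called higher and some lower, as among all genes (17.1% higher and 2644 of 16549 lower). Of 16 folate one-carbon enzymes 5 rose and 3 fell. Among those that rose were Gart, of purine synthesis, at 55.9 ± 4.27 CPM on HFD and 42.2 ± 3.84 CPM on chow (SD, n = 8 each; log2 0.40, edgeR adjusted p = 0.000275), and Mthfd1, of cytosolic folate metabolism, at 50.7 ± 4.54 CPM on HFD and 39.5 ± 3.63 CPM on chow (SD, n = 8 each; log2 0.36, edgeR adjusted p = 0.00151). Shmt1, the cytosolic counterpart of Shmt2, averaged 5.78 ± 0.728 CPM on HFD and 9.53 ± 3.01 CPM on chow (SD, n = 8 each) and fell by 0.71 (log2, edgeR adjusted p = 0.00709). In the 10 libraries with a score under 4, 4 of the 16 were called higher and 1 lower.

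Of the 18 genes of serine and glycine use, 15 passed the filter, 4 rose and 3 fell. Cth, which completes the route from serine to cysteine, averaged 22.6 ± 7.44 CPM on HFD and 9.60 ± 2.89 CPM on chow (SD, n = 8 each; log2 1.24, edgeR adjusted p = 0.00246). The glycine cleavage gene Amt fell by 0.80 (edgeR adjusted p = 0.0016), the mitochondrial serine importer Sfxn1 fell by 0.74 (edgeR adjusted p = 0.00148) and serine racemase Srr fell by 0.53 (edgeR adjusted p = 0.000477) on the log2 scale. Among 9 asparagine, aspartate and glutamine enzymes 2 rose and 4 fell. Aspg, an asparaginase, read 0.488 to 2.03 CPM on HFD and 2.69 to 60.0 CPM on chow (log2 -4.59, edgeR adjusted p = 0.000388), so the chow libraries varied widely without overlapping HFD. HFD libraries lay wholly below chow libraries for 418 of all 16549 genes. Asrgl1 rose by 0.56, while glutamine synthetase Glul fell by 0.56 and Got2 fell by 0.46 on the log2 scale. In the 10 libraries with a score under 4 this last list had 1 gene called higher and 2 lower, and the list of serine and glycine use had 4 higher and 3 lower.

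**Figure D5:**
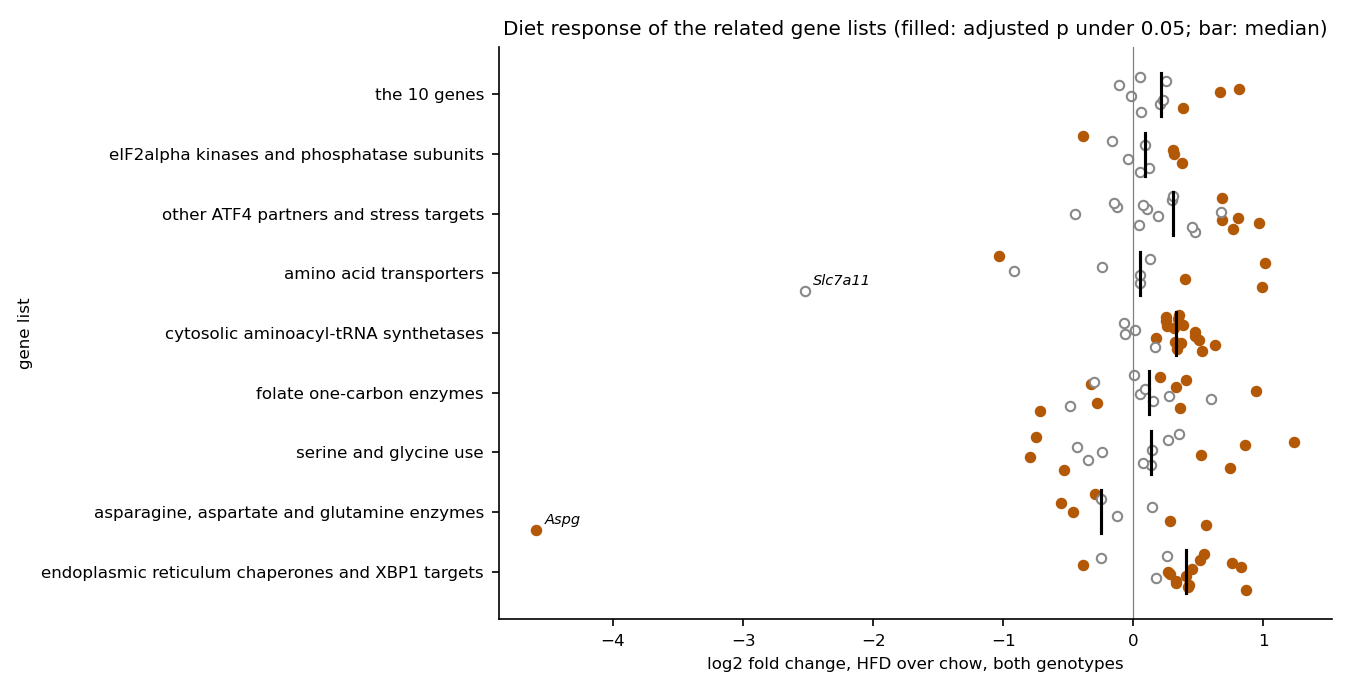
log2 fold change, HFD over chow over both genotypes, of every tested gene of the 10 genes and of 8 related lists. Each point is a gene, filled where the edgeR adjusted p is under 0.05, and the vertical bar is the median of the list. The transfer RNA synthetases and the chaperones lie mostly to the right (medians 0.33 and 0.40), whereas the enzymes of serine use, folate and asparagine lie on both sides of 0.

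None of the 10 genes was called between KO and WT mice, on HFD, on chow or over both diets. In each of these 3 comparisons Kmo itself was the only called gene of 16549, or 0.00604%, and the 10 genes also had 0 calls in DESeq2 and limma-voom. In each comparison 1 of the 10 genes, Chac1, had an unadjusted p under 0.05, as did 1.14% of all genes on HFD, 166 of the 16549 genes on chow and 0.997% over both diets. No gene of the 8 related lists was called in these comparisons by edgeR either.

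Chac1, a glutathione-degrading enzyme and target of ATF4 and CHOP, read 6.51, 5.47, 6.33 and 3.97 CPM in KO HFD libraries, against 9.34, 5.94, 8.31 and 7.31 CPM in WT HFD libraries. It read 5.41, 5.09, 4.11 and 7.75 CPM in KO chow libraries, against 8.41, 6.52, 9.25 and 7.34 CPM in WT chow libraries. KO values were lower on average on both diets, and the genotypes overlapped on both. The log2 difference was -0.47 on HFD (SE 0.22, edgeR unadjusted p = 0.0494, edgeR adjusted p = 1), -0.49 on chow (SE 0.22, edgeR unadjusted p = 0.0400, edgeR adjusted p = 1) and -0.48 over both diets (SE 0.16, 95% interval -0.81 to -0.15, edgeR unadjusted p = 0.00719, edgeR adjusted p = 1). Over both diets it lay between -0.58 and -0.37 in the 28 alternatives, never past the threshold. In the authors' deposited table Chac1 had p = 0.0391 on HFD and 0.0495 on chow with adjusted p = 1 in both, and its shrunken log2 fold change was near 0. Markers of skeletal muscle were also lower on average in KO mice. Over both diets 10 of 11 tested had a log2 difference below 0 in KO mice, with a median of -1.82, and on HFD 11 of 11 with a median of -2.03, none of them called. Their summed level, over 12 genes of which none was at 0 in all libraries, was 46.2 to 474 CPM in KO HFD libraries, against 85.3 to 2290.5 CPM in WT HFD libraries, and 18.3 to 892 CPM in KO chow libraries, against 75.2 to 5238 CPM in WT chow libraries. Within groups Chac1 had r = 0.65 and rho = 0.60 with the muscle score, which missed the threshold (adjusted permutation p = 0.0858 and 0.115), and r = 0.61 without 2 libraries. Centred on diet only, with the genotype difference left in, r was 0.81 in the 10 libraries with a T and B cell score under 4 and 0.17 in the 6 others. With the muscle score as a covariate the difference of Chac1 over both diets was -0.37 (log2, SE 0.14, edgeR adjusted p = 1). At 57 to 147 read pairs a library, Chac1 was counted with few reads.

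The other 9 genes differed by -0.10 (Shmt2) to 0.15 (Ddit3) between KO and WT mice over both diets on the log2 scale. Their 95% intervals reached from -0.40 (Shmt2) to 0.44 (Asns), apart from the scarce and variable Mthfd2, whose interval was -0.48 to 0.57. For Psat1 and Phgdh the intervals were -0.34 to 0.22 and -0.30 to 0.27, which lie below their diet differences of 0.81 and 0.67.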

How the data were processed

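Poly-A RNA from 16 iWAT samples was sequenced as paired reads, and the deposited count table holds whole-number counts of read pairs per gene, made by the authors with STAR 2.7.3a and featureCounts 2.0.3 on GRCm38.p6, per the submitters' processing notes, without strand, per the file headers. The authors' deposited tables of KO against WT also hold log2 fold changes, shrunken by the authors, and p-values, and were used only for the values quoted as theirs. The deposited normalized values were not used here.

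From the counts, edgeR 4.0.16 (R 4.3.3) was run on all 16 libraries with 4 group means, TMM factors, its default expression filter (16549 of 55487 genes), robust quasi-likelihood fits and Benjamini-Hochberg adjustment over all genes tested, and was tested on simulated data. CPM and log2 CPM (prior count 2) use TMM-scaled library sizes, and FPKM also uses exon length. Intervals for log2 differences are 95%. Replicates are separate animals. The numbers of replicates were not used to pair animals, because the labels give no shared litter or day and same-numbered samples did not deviate together (r -0.69 to 0.55). DESeq2 1.42.0, limma-voom (limma 3.58.1), other scaling, filters, covariates and leaving out each library were alternatives. Correlations used 100000 permutations within groups, in Python with NumPy.

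All 10 genes are named. From each other list up to 4 genes are named, the smallest adjusted p among those called first (1 gene that this rule names is not reported here), and the genes most alike are the 3 with the highest r for each of the 3 members with the smallest adjusted p for diet, among genes of at least 1 CPM. The members, lists and tests were chosen with earlier results of these data known. Counts limit precision to a median half-width of 0.44 (log2) for a difference on 1 diet and 0.31 over both diets. Promoter sequences are from RefSeq for GRCm38.p6.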

Additional observations from a re-analysis of the deposited data

Results flagged for a closer look

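In 4 of the 40 combinations of gene and group, 1 library lay far from the other 3 (gap over range above 0.829), where chance gives about 1 in 20. In WT HFD replicate 3, Atf4 read 129 CPM, against 110 to 111 CPM in the other WT HFD libraries, and Ddit3 read 34.8 CPM, against 28.5 to 29.5 CPM. Trib3 read 7.01 CPM in KO HFD replicate 2, against 9.42 to 9.89 CPM in the other KO HFD libraries. Shmt2 read 24.6 CPM in KO HFD replicate 1, the KO HFD library with a T and B cell score over 4, against 19.7 to 20.5 CPM in the others.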

How the results depend on the processing

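The number of the 10 genes called for diet in WT mice was 1, and it was 2 with DESeq2 and at an adjusted p under 0.10, 0 with a replicate block, 0 to 2 on leaving out each library, and 0 in the libraries with a T and B cell score under 4, an alternative chosen after seeing the data. In KO mice it was 2, and it was 3 with limma-voom and at an adjusted p under 0.10, where Ddit3 was added, 1 to 3 on leaving out each library and 1 in the libraries with a score under 4. Over both genotypes it was 3, and 2 to 4 in all alternatives. No call reversed, and no genotype or interaction comparison called any of the 10 genes under any alternative. With the replicate block the WT call of Psat1 was lost (log2 0.77, edgeR adjusted p = 0.0515), and no other call of the 10 genes changed. The numbers do not pair the animals. Of the 64 results of the 10 genes that were not called, 37 changed sign under some alternative, so their direction is not fixed by these data.

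Over all genes, calls for diet in WT mice were 1142 higher and 815 lower, against 902 and 1031 with upper-quartile factors. In KO mice they were 1205 and 866, against 919 and 1113, and over both genotypes 2827 and 2644, against 2309 and 3298. In WT mice the total was 1957, and it was 1050 with the replicate block, 1245 with no filter, 1140 from only the 8 libraries compared, 689 (without WT HFD replicate 3) to 2400 on leaving out each library and 625 in the libraries with a score under 4. In KO mice the total was 2071, and it was 1126 with the replicate block, 1284 with no filter, 3441 with limma-voom, 745 (without KO HFD replicate 2) to 2714 on leaving out each library and 768 in the libraries with a score under 4. Over both genotypes it was 5471, and 3544 in those libraries. A term for libraries from a single sequencing lane and the skeletal muscle score changed no call of the 10 genes. Lowly counted genes, Chac1 and Mthfd2 with as few as 57 read pairs, are the least precise.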
